A study of Drosophila melanogaster with 28 samples.

Results

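The invader families are LTR retrotransposons of the Gypsy superfamily, mobile elements that copy themselves through an RNA intermediate and carry a long terminal repeat at each end. They were chosen by name, as the rows invader1 to invader6 of the transposon tables, and all 6 were present among the 176 families measured. RNA of Drosophila melanogaster was sequenced in 28 libraries, of which 22 have transposon values, all from whole dissected ovaries. In 20 of these 1 gene was knocked down by RNAi with nos-GAL4, a driver that acts in germ cells. The knockdown groups hold 1 library each for rhi, del and cuff, for armi, gasz, zuc and shu, for aub, spn-E, vasa, tej and squ, for piwi, mael and CG3893, and for ars2, U2A and Yb. Their control is the knockdown of w, a gene of eye pigment transport, with 2 libraries. A further 2 libraries are of ovary without a stated knockdown. All flies were fed yeast paste, and the labels leave out the age of the females. Since the driver acts in the germline, follicle cells keep the targeted gene, and their RNA is part of every library. Target gene levels were not analysed here, so the strength of the knockdowns is unknown.

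In the fly ovary transposons are silenced by piRNAs, small RNAs bound by PIWI proteins. Precursors are transcribed from piRNA clusters. In the germline most clusters are transcribed from both strands and depend on the chromatin proteins Rhino (rhi), Deadlock (del) and Cutoff (cuff), here the cluster class. The biogenesis class holds the RNA helicase Armitage (armi), the mitochondrial protein Gasz, the nuclease Zucchini (zuc) and the co-chaperone Shutdown (shu), which serve the making and loading of piRNAs. The nuage class holds the PIWI protein Aubergine (aub), the helicases Spindle-E (spn-E) and Vasa, the Tudor-domain protein Tejas (tej) and Squash (squ), which reside in the perinuclear nuage, where transposon RNA is cleaved. The nuclear silencing class holds Piwi, Maelstrom (mael) and Asterix (CG3893), which act in transcriptional silencing. Yb acts in ovarian somatic cells, Ars2 binds the RNA cap complex, and U2A is a splicing protein. These 3 knockdowns were put in no class.

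The families differ in their copies in the genome. In the Ensembl annotation of BDGP6, invader1 has 47 annotated copies with a median length of 399 bp, and 5 of them are 3000 bp or longer. For invader2 there are 24 copies with a median of 3868 bp, 13 of them at that length, and for invader3 37 copies with a median of 734 bp, 10 of them at that length. These families thus combine long copies with many short pieces. invader4 has 33 copies with a median of 347 bp and a longest copy of 3247 bp. Of these, 20 lie on 3R, and 20 lie beyond the last protein-coding gene of their chromosome arm, which holds for 1 copy of invader3 and 0 copies of each of the others. invader5 has 3 annotated copies, the longest spanning 8640 bp, and invader6 has 8, the longest 4859 bp. Most copies lie outside genes: 39 of 47 for invader1, 18 of 24 for invader2, 31 of 37 for invader3, 30 of 33 for invader4 and 7 of 8 for invader6, but 1 of 3 for invader5. Exons are touched by 4 copies of invader1, 2 of invader4 and 1 each of invader2 and invader3. The annotation is of another build than the dm3 named for the files, which hold no positions, and reads were not assigned to copies here.

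**Figure D1:**
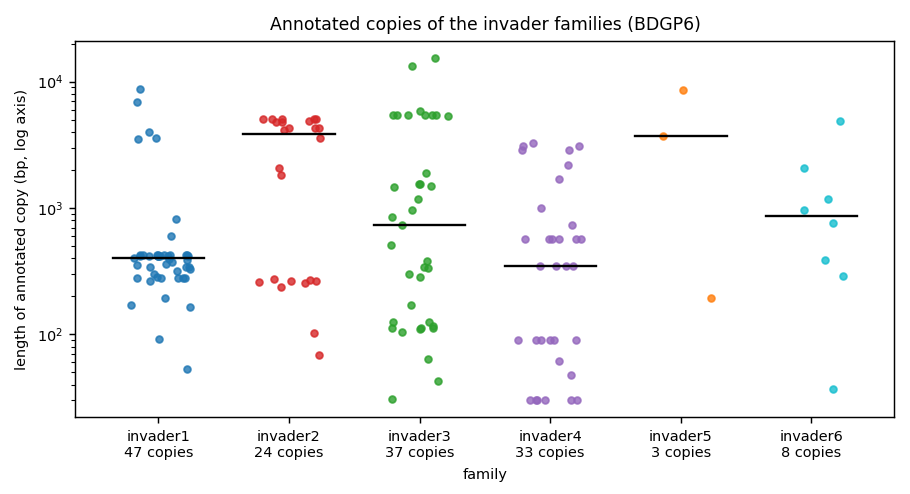
Length in base pairs (log axis) of each annotated copy of the 6 invader families in BDGP6, 1 point per copy, with a bar at the median. invader2 and invader5 have medians of 3868 and 3693 bp, and invader1 and invader4 of 399 and 347 bp.

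The values are scores, whole numbers per family whose unit is not stated and which behave like reads scaled to a common depth. Genome-mapped reads ranged from 2026093 (gasz) to 20185962 (tej) in the knockdowns and were 3831461 and 3037471 for w. CG3893 had the next lowest depth after gasz, at 2429481. A score and its counting error cannot be tied to a read number, so no counting intervals are given. In the 2 ovary libraries, which also have gene values, the 6 germline markers summed to 1065 and 1108 FPKM, a value normalised to transcript length and library depth, the 4 somatic and eggshell markers to 2255 and 2117, and the 6 markers of other tissues to 41.8 and 39.8. Of the last, the muscle myosin gene Mhc stood at 22.8 and 23.0 FPKM and the gut trypsin gene alphaTry at 0.895 and 0.880, and none was at 0. Marker genes were not analysed in the knockdown libraries.

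Knockdown of biogenesis factors or of nuclear silencing factors went with more RNA of several invader families, and in the nuage class none of the 6 passed the test. invader1, invader2, invader3 and invader4 rose in the biogenesis class against w. invader1, invader3 and invader4 rose in the nuclear silencing class. In the cluster class invader3 alone of the 6 was called. invader5 and invader6 were called in no class. Classes were compared with limma on log2(score + 1) over the 159 families that reached a score of 10 in 2 or more libraries, which all 6 invader families did, and calls are Benjamini-Hochberg adjusted p under 0.05. Knockdowns of different genes stand in for replicates of a class, so the spread includes differences between genes. In bulk ovaries fewer cells of a type and less RNA per cell cannot be told apart.

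Of all families tested, 22% were higher in the biogenesis class, against 4 of 6 invader families. In the nuclear silencing class 13.8% of all families were higher, and 3 of 6 invader families. The cluster class had 3.77% of all families higher and 1 of 6 invader families, and the nuage class 1.26% and 0 of 6, with 0 of 6 invader families and 31 of 159 families at an unadjusted limma p under 0.05. The median log2 difference of the 6 invader families was 1.07 in the biogenesis class, 0.99 in the nuclear silencing class, 0.23 in the cluster class and 0.24 in the nuage class. Over all 159 families the medians were 0.39, 0.39, -0.03 and 0.12 in the same order. Median-ratio scaling, which sets the typical family equal between libraries, moved these medians to -0.05, -0.08, -0.07 and -0.06, and the calls to 18 families higher and 22 lower in the biogenesis class (35 and 1 as deposited), 10 and 10 in the nuclear silencing class (22 and 0), 6 and 1 in the cluster class (6 and 0) and 5 and 5 in the nuage class (2 and 0). After it invader3 in the cluster class, invader3 and invader4 in the biogenesis class and invader4 in the nuclear silencing class were called. Without w replicate 2, which leaves 1 control library, 0 invader families were called against w in any class, and over all families 7 were higher in the biogenesis class, 0 in the nuclear silencing class, 1 in the cluster class and 0 in the nuage class. With squ moved to the biogenesis class 0 invader families were called likewise, and over all families 11, 6, 5 and 4 were higher in the same order.

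**Figure D2:**
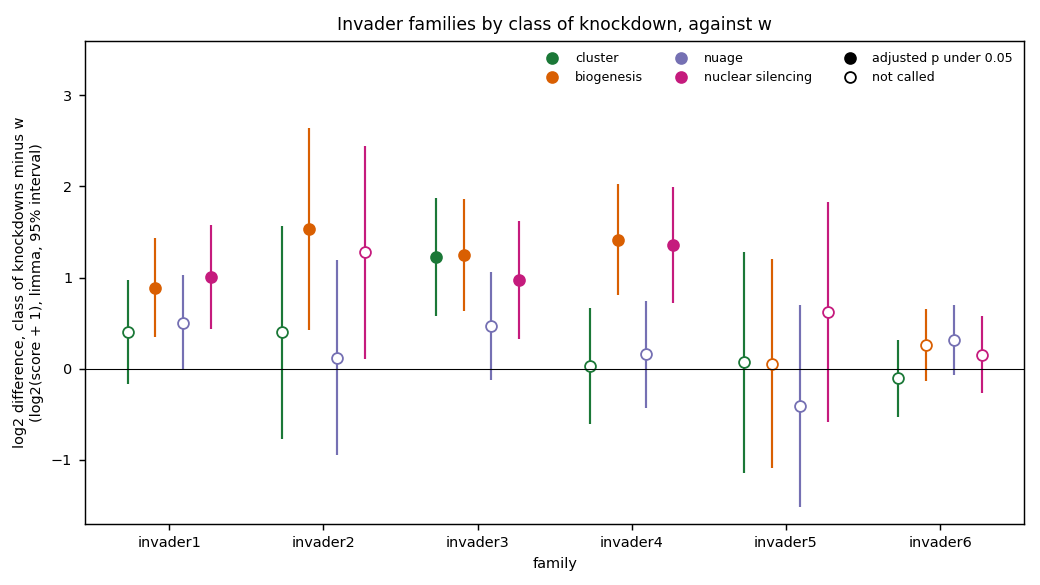
Log2 difference of each invader family between a class of knockdowns and w, on log2(score + 1), as fitted with limma; bars are 95% intervals, and filled points have an adjusted p under 0.05. The intervals of invader4 lie above 0 for the biogenesis and nuclear silencing classes and span 0 for the cluster and nuage classes, whereas all 4 intervals of invader6 span 0.

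In single knockdowns a family was counted as higher where it was at least 2-fold above the mean of the 2 w libraries on the log2(score + 1) scale and above both of them. There is 1 library per knockdown, so these counts have no replicate check. The shu and piwi knockdowns each had 4 invader families higher (invader1, invader2, invader3 and invader4), against 27% and 26.4% of all families. With armi 3 were higher, against 13.2% of all families. Counts of 2 were found for gasz (17.6% of all families), zuc (26.4%), CG3893 (19.5%), mael (15.7%) and del (12.6%), and cuff had 1 (15.1%). In 9 knockdowns, 0 of 6 invader families were higher, which is near the shares of 3.77% to 17% over all families. The 9 knockdowns were rhi (9.43% of all families), aub (10.7%), spn-E (17%), squ (5.03%), tej (3.77%), vasa (13.2%), ars2 (6.92%), U2A (5.66%) and Yb (3.77%). A single family fell outside on the low side, invader5 with spn-E and with vasa, where 2.52% and 3.14% of all families were at least 2-fold lower and below both w libraries.

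**Figure D3:**
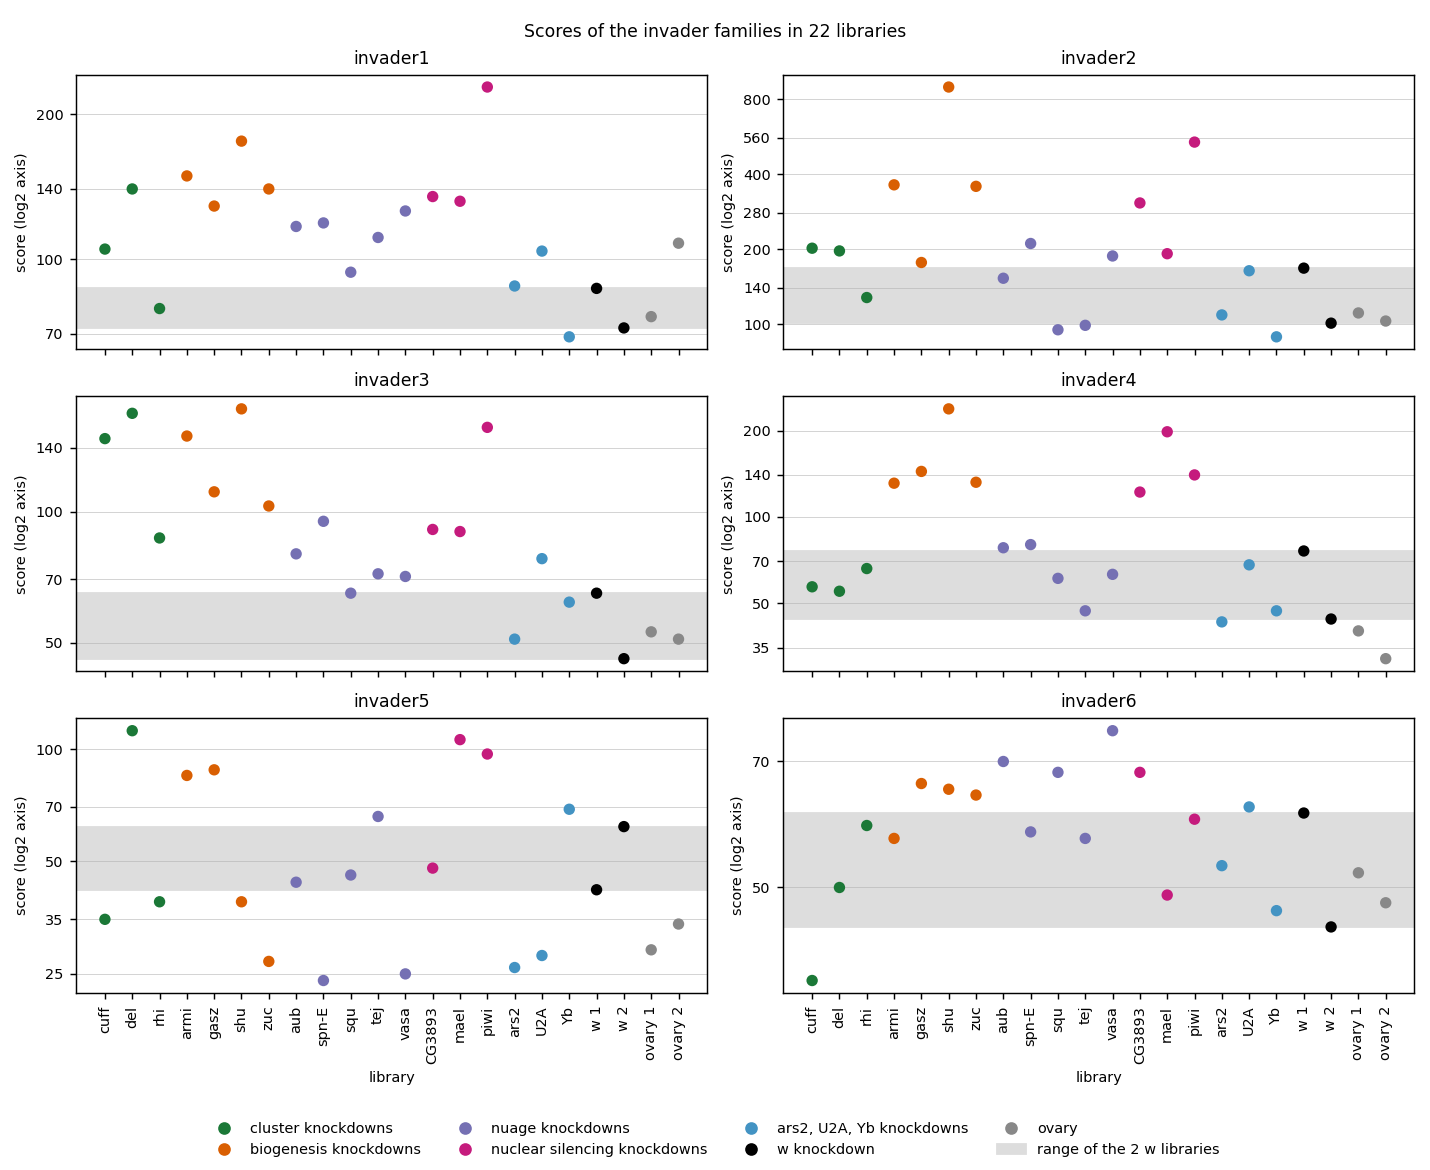
Score of each invader family (log2 axis) in 22 libraries, 1 point per library, coloured by class of knockdown, with the range of the 2 w libraries shaded. In the panel of invader4 the 7 biogenesis and nuclear silencing libraries lie between 122 and 238, above both w libraries at 76 and 44.

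invader4 had called differences between 4 of 6 pairs of classes. Its scores were 131, 144, 238 and 132 in the armi, gasz, shu and zuc knockdowns, against 76 and 44 in w. In the CG3893, mael and piwi knockdowns they were 122, 198 and 140. None of these 7 libraries overlapped with w. Over all families, 32.7% had every biogenesis library above both w libraries and 38.4% every nuclear silencing library. The biogenesis class differed from w by 1.42 (log2, SE 0.29, limma adjusted p = 0.00448) and the nuclear silencing class by 1.36 (SE 0.30, adjusted p = 0.0111). With cluster factors knocked down invader4 lay within the range of w, at 57 with cuff, 55 with del and 66 with rhi, a difference of 0.03 (SE 0.30, adjusted p = 0.983; 95% interval -0.61 to 0.67). The nuage knockdowns had 78, 80, 61, 47 and 63 for aub, spn-E, squ, tej and vasa, of which the first pair lay just above the higher w library, and the class difference was 0.16 (SE 0.28, adjusted p = 0.757).

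These differences between classes were themselves tested for invader4. The cluster class was below the biogenesis class by a log2 difference of -1.38 (SE 0.25, limma adjusted p = 0.00253) and below the nuclear silencing class by -1.33 (SE 0.27, adjusted p = 0.0111). Biogenesis exceeded nuage by 1.26 (SE 0.22, adjusted p = 0.00522), and nuage was below nuclear silencing by -1.20 (SE 0.24, adjusted p = 0.0175). Between the remaining pairs of classes the differences were 0.06 (SE 0.25; interval -0.48 to 0.59) for biogenesis minus nuclear silencing and -0.13 (SE 0.24; interval -0.64 to 0.39) for cluster minus nuage. Over all families, calls in either direction came to 18.2% for cluster minus biogenesis, 5.66% for cluster minus nuclear silencing, 12.6% for biogenesis minus nuage, 5.03% for nuage minus nuclear silencing, 0.629% for cluster minus nuage and 0% for biogenesis minus nuclear silencing. Median-ratio scaling moved the calls over all families to 5 higher and 11 lower for cluster minus biogenesis (0 and 29 as deposited), 14 and 4 for biogenesis minus nuage (20 and 0), 3 and 2 for cluster minus nuage (1 and 0), 0 and 1 for cluster minus nuclear silencing (0 and 9) and 0 and 2 for nuage minus nuclear silencing (0 and 8). With that scaling the cluster minus nuclear silencing call of invader4 was lost (-0.905, adjusted p = 0.0765), as it was without del (-1.28) and without piwi (-1.38), and the nuage minus nuclear silencing call was lost without tej (-1.09) and without piwi (-1.25). With squ moved to the biogenesis class the biogenesis minus nuage (0.97) and nuage minus nuclear silencing (-1.18) calls were lost. Among the 18 knockdowns the order of invader4 was led by shu, mael, gasz and piwi and ended with Yb and tej, both at 47, and ars2 at 43, the last 3 within or just below the w range.

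invader3 was the 1 invader family that rose in the cluster class. It had 147, 168 and 87 in the cuff, del and rhi knockdowns, against 65 and 46 in w, and the 3 lay above both w libraries, as did 14.5% of all families. The class difference was 1.22 (SE 0.31, limma adjusted p = 0.0268), a call lost without cuff (1.13), without del (1.035), without w replicate 2 (0.98) and with squ in the biogenesis class (adjusted p = 0.105). With armi, gasz, shu and zuc the scores were 149, 111, 172 and 103, a rise of 1.24 (SE 0.29, adjusted p = 0.00866) over w. CG3893 and mael had 91 and 90 and piwi 156, a rise of 0.98 (SE 0.31, adjusted p = 0.0448). This call was lost with a pseudocount of 10 (0.87, adjusted p = 0.0511), when adjusted over all contrasts (adjusted p = 0.0699), after median-ratio scaling (0.515, adjusted p = 0.229) and with squ in the biogenesis class (adjusted p = 0.119). It was also lost without any 1 of armi, aub, squ, tej, vasa, mael, piwi and the w and ovary replicates, at values between 0.72 and 1.22. The nuage knockdowns aub, spn-E, squ, tej and vasa had 80, 95, 65, 72 and 71, of which squ equalled the higher w library. Their class difference of 0.47 (SE 0.28) did not pass (adjusted p = 0.383). Biogenesis exceeded nuage by 0.78 (SE 0.22, adjusted p = 0.0340), a call lost without armi (0.715), shu (0.65), aub (0.80), squ (0.72), tej (0.76) or vasa (0.75) and after median-ratio scaling (0.51). For cluster minus nuage the difference was 0.76 (SE 0.24, adjusted p = 0.141), and it was called after median-ratio scaling (0.90, adjusted p = 0.0352) and without rhi (1.04, adjusted p = 0.0203). invader3 stood at 51, 78 and 62 with ars2, U2A and Yb, of which U2A alone exceeded both w libraries.

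Read against each other within a library, invader3 and invader4 separated 2 of the cluster knockdowns. The log2 ratio of invader3 to invader4 was 1.35 with cuff, 1.59 with del and 0.39 with rhi. It was between -0.47 and 0.18 in the biogenesis class and between -1.13 (mael) and 0.16 (piwi) in the nuclear silencing class. In w it was -0.22 and 0.06, and in ovary 0.40 and 0.66. The ratios with cuff and del were the highest of all 22 libraries, whereas that with rhi lay within the range of ovary, Yb (0.39) and tej (0.60). This pair of families was set side by side after their values were seen, so the ratio is given without a test.

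**Figure D4:**
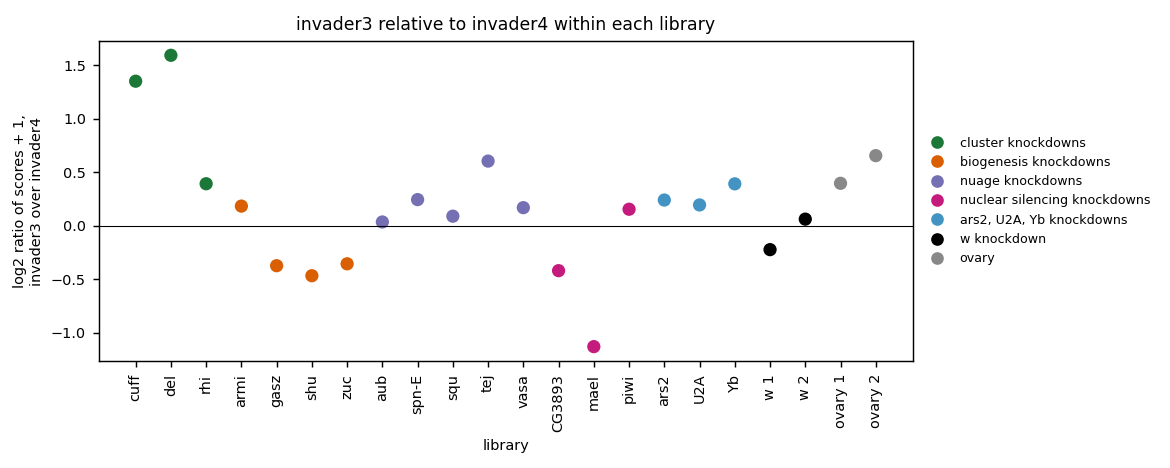
Log2 ratio of invader3 to invader4 (scores + 1) in each of 22 libraries, 1 point per library, coloured by class of knockdown. cuff and del stand at 1.35 and 1.59, above all others, and mael at -1.13 is the lowest.

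invader2 reached the highest score of the 6 families. It had 897 in the shu knockdown, and 363, 177 and 358 with armi, gasz and zuc, against 168 and 101 in w. All 4 were above both w libraries, gasz by little, as held for 32.7% of all families. The biogenesis class differed from w by 1.53 (SE 0.52, limma adjusted p = 0.0456), close to the threshold: leaving out 1 library ended the call for each w and ovary replicate and for cuff, del, rhi, armi, shu, zuc, aub, spn-E, squ, vasa or CG3893, with estimates of 1.12 without shu and 1.17 without w replicate 2. In the nuclear silencing class piwi had 539, CG3893 307 and mael 192, and the difference of 1.28 (SE 0.55) was not called (adjusted p = 0.139), but was with w and ovary together as the control (1.42, adjusted p = 0.0241), which raised the calls over all families to 49 higher, against 22 with w alone. The nuage knockdowns aub, spn-E, squ, tej and vasa had 153, 211, 95, 99 and 188 and overlapped with w, with a difference of 0.12 (SE 0.51, adjusted p = 0.906). Cluster factors gave 202, 197 and 128 for cuff, del and rhi and 0.40 (SE 0.55, adjusted p = 0.801). Biogenesis exceeded nuage by 1.41 (SE 0.41, adjusted p = 0.0340), which was not called without shu (1.00), zuc (1.44), aub (1.44), squ (1.27) or tej (1.285). The w libraries themselves were 0.73 apart on the log2 scale for invader2, against 0.11 for the ovary libraries at 111 and 103.

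invader1 was at least 2-fold above w in 2 of 18 knockdowns, shu and piwi. It exceeded both w libraries, at 87 and 72, in 16 of 18 knockdowns, as 1 of the 2 ovary libraries did. These counts share the 2 w libraries, the median over all families was 8 of 18, and 16 of 159 families reached 16 or more. In the biogenesis class it had 149, 129, 176 and 140 for armi, gasz, shu and zuc, a rise of 0.89 (SE 0.26, limma adjusted p = 0.0209). piwi had the highest score, 228, with CG3893 and mael at 135 and 132, a rise of 1.00 (SE 0.27, adjusted p = 0.0262) for the nuclear silencing class. The biogenesis call was lost without shu (0.81) and without w replicate 1 (1.025) or 2 (0.755), the nuclear silencing call without piwi (0.75) and without w replicate 1 (1.14) or 2 (0.87), and both after median-ratio scaling (0.44 and 0.54). With the nuage factors aub, spn-E, squ, tej and vasa it had 117, 119, 94, 111 and 126, all above both w libraries, as were 13.2% of all families, with a class difference of 0.51 (SE 0.25, adjusted p = 0.265). The cluster knockdowns cuff, del and rhi had 105, 140 and 79, and rhi lay between the w libraries. ars2 at 88 was close to the higher w library and Yb at 69 was below both. The ovary libraries, at 76 and 108, overlapped with w, and 5 knockdowns (cuff, rhi, squ, ars2 and U2A) lay between them.

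invader5 varied within each class. Its highest scores were 112 with del, 106 with mael, 97 with piwi, 88 with gasz and 85 with armi, against 42 and 62 in w. The other members of the same classes stayed low: cuff and rhi had 35 and 39, shu and zuc 39 and 27, and CG3893 48. In the nuage class spn-E and vasa had 24 and 25, below both w libraries, and aub, squ and tej 44, 46 and 66. The class differences were 0.07 (SE 0.57) for cluster, 0.06 (SE 0.54) for biogenesis, -0.41 (SE 0.52) for nuage and 0.62 (SE 0.57) for nuclear silencing, with limma adjusted p between 0.532 and 0.983. Of 18 knockdowns 7 exceeded both w libraries, 3 lay between them and 8 were below both. The ovary libraries had 29 and 34, lower than both w libraries, and 7 knockdowns were at least 2-fold above ovary, against 2 above w. Counts against ovary were made for the invader families alone. Of all families, 42.8% had both w libraries above both ovary libraries, so a higher count against ovary is not particular to invader5.

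invader6 varied least of the 6 families. Its scores over 18 knockdowns ran from 39 with cuff to 76 with vasa, with a median of 59.5, against 61 and 45 in w and 52 and 48 in ovary. Over knockdowns its SD was 0.23 on the log2 scale, the 135th largest of 159 families, whose median was 0.40. The other 5 invader families were above that median, invader2 with 0.89, invader5 with 0.76, invader4 with 0.75, invader3 with 0.53 and invader1 with 0.41. In no knockdown was invader6 2-fold from w. The class differences were -0.11 (SE 0.20, interval -0.53 to 0.31) for cluster, 0.26 (SE 0.19, interval -0.14 to 0.66) for biogenesis, 0.31 (SE 0.18, interval -0.07 to 0.70) for nuage and 0.16 (SE 0.20, interval -0.26 to 0.58) for nuclear silencing, and none passed the limma test. The upper bounds lie below 1, a 2-fold rise.

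**Figure D5:**
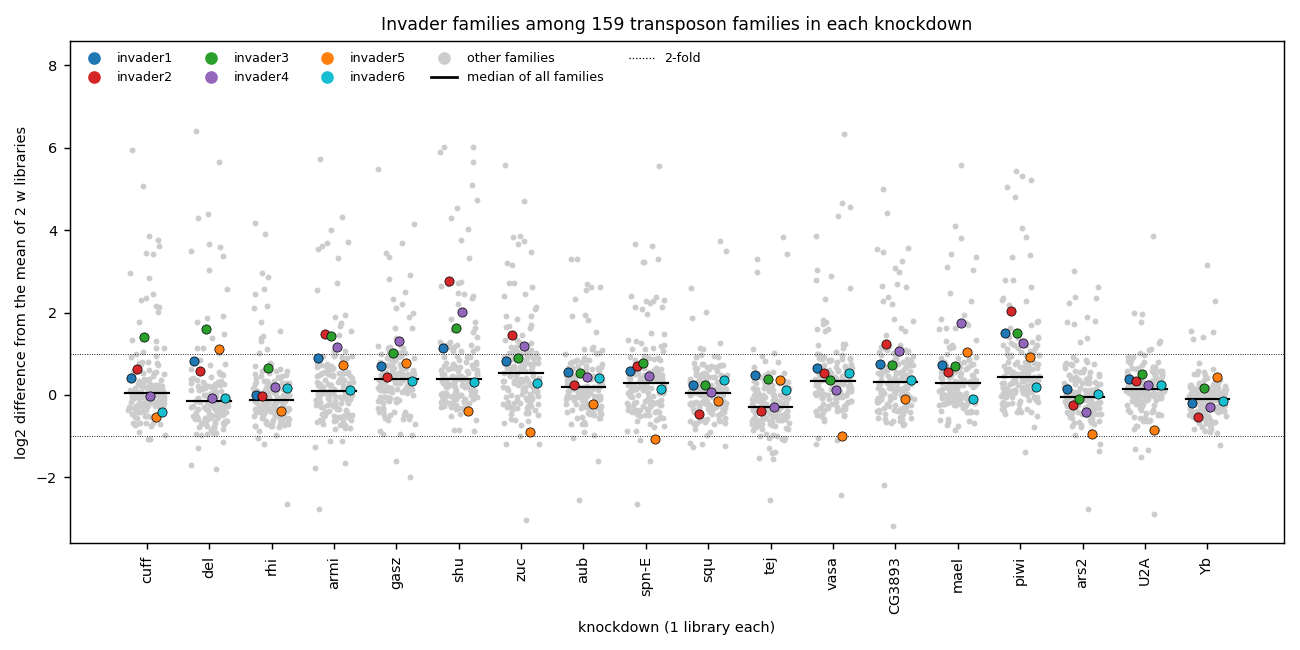
Log2 difference from the mean of the 2 w libraries for 159 families in each of 18 knockdowns (1 library each), with the 6 invader families in colour, the median of all families as a bar and 2-fold as dotted lines. invader2 in the shu knockdown is the highest invader value at 2.77, and other families reach higher in every knockdown.

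Set among all families, the invader families were not at the top of the response in any knockdown. The highest position was the 12th of 159, taken by invader2 with shu (2.77) and by invader4 with mael (1.76). invader3 was the 14th with del and the 17th with cuff, and invader1 with tej (0.48) and invader5 with Yb (0.43) the 14th. At the other end invader5 was the 156th with spn-E and the 155th with vasa, zuc and ars2. As a share of all transposon scores, the 6 families together made up 3.25% and 2.94% in w and 3.13% and 3.42% in ovary, and between 1.16% (vasa) and 2.80% (Yb) in the other knockdowns, so that their sum was a smaller share in all 18. Their summed score was 1587 with shu and 1220 with piwi, against 499 and 370 in w.

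Other families are given for comparison. Their lists were chosen with earlier results of these data known, so they are not an independent scale of the response. Of 17 germline families listed apart from the invaders, 12 rose in the biogenesis class, 12 in the nuclear silencing class, 4 in the cluster class and 2 in the nuage class, with median log2 differences of 3.40, 2.88, 1.63 and 0.75. Burdock, a Gypsy-type family, rose by 4.27 (SE 0.69, limma adjusted p = 0.00114) in the biogenesis class and by 4.97 (SE 0.73, adjusted p = 0.000591) in the cluster class. Among 42 other Gypsy-superfamily families, 16 rose in the biogenesis class, 8 in the nuclear silencing class, 3 in the cluster class and 2 in the nuage class, with medians of 0.69, 0.63, -0.03 and 0.22. Of 14 families listed as somatic 2 were called higher in the biogenesis class (flea and Stalker) and 0 in the other classes. Their medians were 0.63, 0.58, -0.08 and 0.10 for biogenesis, nuclear silencing, cluster and nuage. flea had uncalled differences of 2.32 in the cluster class (SE 0.72, limma adjusted p = 0.102) and 1.93 in the nuclear silencing class (SE 0.72, adjusted p = 0.0957). In the nuage class it had 0.55. With a driver that acts in germ cells, the values of flea do not bear out its listing as somatic. Of 9 other LTR families (BEL and Copia) 5, 3, 2 and 0 rose in the biogenesis, nuclear silencing, cluster and nuage classes. These lists overlap, so their counts cannot be added. Burdock and blood are both germline and Gypsy-superfamily families, and 3S18 is in the germline list and the BEL and Copia list.

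Families with the most alike profile over the 22 libraries were found by the root-mean-square difference of log2 scores after each family's mean was removed. For invader1 they were baggins (0.25) and Circe (0.30), for invader2 rover and McClintock (0.40 each), and for invader3 invader1 (0.36) and Max-element (0.38). invader4 was nearest to 17.6 (0.39) and accord (0.40), invader5 to Dnet_R1B (0.42) and Tc1 (0.51), and invader6 to S2 (0.19) and Dmer_R1A3 (0.19). The median over all families was 0.48, 0.80, 0.61, 0.72, 0.82 and 0.40 for invader1 to invader6 in order. The libraries share 1 kind of preparation and differ in depth, so these values describe likeness in these libraries.

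The control knockdown was also set against ovary, the group without a stated knockdown. No family was called by limma, 0% of 159, with 15 families and 0 of the 6 invader families at an unadjusted p under 0.05. A fit of the w and ovary libraries alone, with the replicate number as a block, called 12 families higher and 4 lower. The main fit shares its spread over all 22 libraries, which includes differences between genes of a class. Its 0% therefore does not show that w and ovary are alike. invader4 had 76 and 44 in w and 40 and 32 in ovary, with both w libraries above both ovary libraries, and the log2 difference was 0.68 (SE 0.33, limma adjusted p = 0.507). For invader5 the scores were 42 and 62 in w and 29 and 34 in ovary, also without overlap, and the log2 difference was 0.68 (SE 0.63, adjusted p = 0.775). Of all families, 42.8% had both w libraries above both ovary libraries. invader1, invader2, invader3 and invader6 overlapped and differed by -0.19, 0.28, 0.07 and 0.07. The w libraries were farther apart than the ovary libraries, with a median gap of 0.42 against 0.14 on the log2 scale over 159 families.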

How the data were processed

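Total RNA of whole ovaries was depleted of ribosomal RNA and sequenced, per the labels' protocols. Per the submitters' processing notes CASAVA 1.3, Bowtie, TopHat, Cufflinks and the build dm3 were used, with no roles given. The transposon score was deposited by the authors as whole numbers per family, with the number of genome-mapped reads, and no source here states its scaling, strand or mapping rule. Between the ovary libraries the scores varied by 0.63 of what counting would give for raw counts (123 families of mean score under 100), and by 2.81 between the w libraries (110 families). FPKM of genes, made by the authors per the file headers, were used for ovary markers alone. A line of the gasz table that names no family was skipped, and 1 family, removed by the filter in any case, has no gasz score.

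Scores were used as deposited, on log2(score + 1), so folds of low families are understated. limma 3.58.1 in R 4.3.3 (eBayes with trend, 2-sided) was run over 159 families and 22 libraries with 11 contrasts and 13 residual degrees of freedom, adjusted within each contrast, and was tested on simulated data. Nothing states that replicates came from separate animals, so the spread of the w and ovary pairs may be technical. The rest of the spread behind the p-values is between knockdowns of different genes of a class. All invader families and knockdowns are named, with the 2 most alike families each, and up to 3 called members of other lists. Members, classes and lists were chosen with earlier results of these data known. Alternatives were another pseudocount, no filter, median-ratio scaling, other controls, classes and folds, and leaving out libraries. Copies are from Ensembl release 115.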

Additional observations from a re-analysis of the deposited data

Results flagged for a closer look

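In the biogenesis class (4 libraries) invader4 had 238 with shu, set apart from 131, 132 and 144 in the other libraries by more than Dixon's 95% criterion allows. Of 12 groups tested in this way 1 stood out, and chance gives about 1 in 20. Without shu the biogenesis class was still called against w.

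Differences between classes of knockdown passed the limma test in 6 of 36 tests over families and pairs. The pairs share libraries, so these tests are not independent. Over all families, 18.2% were called for cluster minus biogenesis, 12.6% for biogenesis minus nuage and 5.66% for cluster minus nuclear silencing. The shares were 5.03% for nuage minus nuclear silencing, 0.629% for cluster minus nuage and 0% for biogenesis minus nuclear silencing. For invader4 the differences that passed were -1.38 for cluster minus biogenesis and -1.33 for cluster minus nuclear silencing. They were 1.26 for biogenesis minus nuage and -1.20 for nuage minus nuclear silencing. For invader2 and invader3 biogenesis minus nuage gave 1.41 and 0.78. Genome-mapped reads behind these classes were 4922424 to 8092276 (cluster), 2026093 to 10600469 (biogenesis), 3329553 to 20185962 (nuage) and 2429481 to 6302378 (nuclear silencing); their part in the differences was not tested.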

How the results depend on the processing

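Counts of knockdowns at least 2-fold above w became 0, 3, 2 and 1 for invader1, invader2, invader4 and invader5 under median-ratio scaling. With ovary as the control they became 1 for invader1 and 7 for invader5, and with a pseudocount of 10 it was 0 for invader5. At 4-fold they were 0, 2, 0, 1 and 0 for invader1 to invader5. With limma and a spread pooled from the w and ovary pairs they were 1, 2, 1 and 0 for invader1, invader2, invader4 and invader5. Leaving out 1 library, of w or of a class of knockdowns, gave 1 to 3 for invader1 and 4 to 6 for invader2. The ranges were 5 to 8 for invader3, 2 to 7 for invader4 and 0 to 5 for invader5. Where a w library was left out, the other is the whole control. These alternative counts were made for the invader families alone.

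Invader families called became 0 for cluster, biogenesis and nuclear silencing minus w, for biogenesis minus nuage and for nuage minus nuclear silencing with squ in the biogenesis class, where all families called higher were 5, 11 and 6 against w, and 0 in either direction for both pairs of classes. Under median-ratio scaling they were 2 for biogenesis minus w, 1 for nuclear silencing minus w, 1 for cluster minus nuage and 0 for cluster minus nuclear silencing. Adjusted over all contrasts they were 2 for biogenesis minus w, 2 for nuclear silencing minus w and 1 for biogenesis minus nuage, with 22, 14 and 13 of 159 families higher. With a pseudocount of 10 they were 2 for nuclear silencing minus w, with 20 of 159 families higher. Leaving out 1 library gave 0 to 1 for cluster minus w, 0 to 4 for biogenesis minus w, 0 to 3 for nuclear silencing minus w, 1 to 2 for cluster minus biogenesis, 0 to 1 for cluster minus nuage, for cluster minus nuclear silencing and for nuage minus nuclear silencing, and 1 to 3 for biogenesis minus nuage. A lone w library is assumed to vary like the other groups. Counts over all families moved too. The invader ranges above also cover leaving out a w or ovary replicate, whereas the following ranges leave out knockdowns alone. The 2 sets of ranges are therefore not like for like. Leaving out 1 knockdown gave 1 to 13 families higher for cluster minus w and 24 to 37 for biogenesis minus w. It gave 6 to 24 higher for nuclear silencing minus w and 6 to 24 for biogenesis minus nuage. For cluster minus biogenesis, 5 to 42 families were lower. The counts were 0 to 19 lower for cluster minus nuclear silencing and 0 to 12 lower for nuage minus nuclear silencing. For cluster minus nuage they were 0 to 7 higher and 0 to 4 lower.

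Signs turned in uncalled differences. Under median-ratio scaling these were invader4 cluster minus w (-0.006) and nuage minus w (-0.022), invader5 biogenesis minus w (-0.386), invader6 biogenesis minus w (-0.185), nuclear silencing minus w (-0.303) and cluster minus biogenesis (0.042), invader2 nuage minus w (-0.061), invader4 cluster minus nuage (0.017), and w minus ovary for invader3 (-0.120) and invader6 (-0.124). With squ in the biogenesis class invader4 biogenesis minus nuclear silencing was -0.213. Leaving out 1 library gave, against w, -0.356 to 0.419 (invader4), -0.456 to 0.369 (invader5) and -0.320 to 0.110 (invader6) for cluster, -0.219 to 0.373 (invader5) for biogenesis, -0.244 to 0.485 (invader2) and -0.230 to 0.545 (invader4) for nuage, and -0.060 to 0.371 (invader6) for nuclear silencing. It gave -0.146 to 0.254 for invader4 biogenesis minus nuclear silencing, and for w minus ovary -0.444 to 0.058 (invader1), -0.081 to 0.647 (invader2), -0.173 to 0.317 (invader3) and -0.148 to 0.283 (invader6). The cause was not tested.

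Fitted alone with the replicate number as a block, the w and ovary libraries had 12 of 159 families higher and 4 lower in w. Of these, 0 were invader families, and invader4 stood at 0.678 (limma adjusted p = 0.133). Deviations of same-numbered libraries correlated at 0.044 over 159 families, so no shared deviation by number was seen. This cannot show whether the samples were handled in pairs. Depth cannot be tied to a score, which limits statements on low families such as invader5.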
